A study of Mus musculus with 6 samples.

Results

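The genes described here make, recycle and use glutathione, the small thiol that macrophages hold at high concentration against peroxides and reactive aldehydes. The 9 members were taken by name from the deposited gene tables through their NCBI gene numbers: Slc7a11, Gclc, Gclm, Gss, Gsr, Glrx, Gpx1, Gpx3 and Gpx4. They are 9 of the 16871 gene numbers listed across the libraries, and each was listed in all 6 libraries. The libraries came from C57BL/6 mouse bone marrow-derived macrophages, that is, marrow cells matured into macrophages over 7 days in culture, from animals aged 8 weeks. All 6 cultures were treated with oxidised low-density lipoprotein (oxLDL), whose dose and duration the labels do not give. The 3 control libraries (LKO) carried a knockout of the low-density lipoprotein receptor, and the 3 others (DKO) carried that knockout together with one of the mitochondrial aldehyde dehydrogenase ALDH2. No group with an intact receptor or without oxLDL is used here, so the comparison is of ALDH2 loss on a receptor-deficient, oxLDL-treated background.

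Glutathione is built from glutamate, cysteine and glycine. Cysteine enters many cells as cystine through the exchanger xCT, glutamate-cysteine ligase joins it to glutamate, and glutathione synthetase adds glycine. Glutathione peroxidases and glutaredoxin then spend glutathione on peroxides and oxidised protein thiols, and glutathione reductase returns the oxidised form with NADPH. ALDH2 clears lipid-derived aldehydes such as 4-hydroxynonenal, which also react with glutathione. The transcription factor NRF2 drives many of these genes through antioxidant response elements, and ATF4, the factor of the amino acid response, drives the gene of xCT through amino acid response elements.

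Short promoter stretches of Gclm and Slc7a11 are shown because these were the members whose RNA changed, and because each held a match to one of these elements. The stretches are read 5′ to 3′ on the gene's strand from RefSeq windows of build GRCm38.p6 that run from 250 bases before to 50 bases after each annotated start. Capitals mark the match, and the stretch of Gclm lies at chr3:122245397-122245466 on the plus strand and that of Slc7a11 at chr3:50443634-50443703 on the minus strand.
Gclm: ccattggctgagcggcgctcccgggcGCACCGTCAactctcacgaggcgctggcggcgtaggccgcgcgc
Slc7a11: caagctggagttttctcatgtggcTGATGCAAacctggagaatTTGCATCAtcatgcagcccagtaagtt

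In Gclm the match to the antioxidant response element, searched as TGACNNNGC on both strands, began at base −134 from the annotated start and read on the opposite strand. In Slc7a11 there were matches to the amino acid response element, searched as TGATGNAA, at base −66 on the gene's strand and at base −47 on the opposite strand, with 11 bases between them. The antioxidant element was found in 12.4% of all 32851 promoter windows and the amino acid element in 3.97%. Windows were present for 7 of the 9 members, 11 windows in all; Gclc and Gsr had none. Among the members the antioxidant element matched in Gclm alone and the amino acid element in Slc7a11 alone, while the AP-1 element TGANTCA, found in 7.81% of all windows, matched in Glrx at base −98 of one window and −99 of the other. These letters can overlap with one another in other promoters, and a match describes the sequence, not a bound site.

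The deletion was visible in the labelled gene. Aldh2 stood at 241 ± 6.83 FPKM (fragments scaled to transcript length and library size, a level per length) in LKO and at 7.13 ± 0.181 in DKO (SD, n = 3 each), a log2 fold change of −5.01 (edgeR adjusted p = 4e-24). Libraries held between 10760625 and 10987584 expected counts, which are the authors' estimated reads per gene. All 10 macrophage markers were present, and several moved with the genotype: 5 rose, 1 fell and 4 did not pass. Their summed level was 9997 to 10705 FPKM in LKO and 11182 to 12356 in DKO. Most of that sum was Lyz2 (mean 6105 FPKM in LKO and 7616 in DKO), so it does not describe the other markers. Csf1r rose from 365 to 484 FPKM (log2 fold change 0.42, edgeR adjusted p = 5.7e-06), with Fcgr1 and Mertk also higher, and Adgre1 fell from 1938 to 1755 (−0.13, edgeR adjusted p = 0.0182). Of markers of other cells, the summed level of 18 neutrophil markers was 642 to 701 FPKM in LKO and 428 to 468 in DKO, that of 11 lymphocyte markers 104 to 116 and 80.5 to 88.1, and that of 18 stromal markers 47.3 to 53.2 and 75.7 to 100.4. Of those tested, 9 of 16 neutrophil markers and 5 of 6 lymphocyte markers fell and 8 of 15 stromal markers rose. Most of the lymphocyte sum was Cd79b (mean 96.0 FPKM in LKO and 77.6 in DKO). Most of the neutrophil sum was S100a9, S100a8 and Ngp (means 274, 127 and 121 FPKM in LKO and 172, 80.0 and 78.7 in DKO). The part of these marker changes in any result below was not tested. Erythroid, mast cell and dendritic markers summed to at most 3.76 FPKM in any library, with Hba-a2, Hbb-bs and Hbb-bt not listed at all. Nothing in the labels states separate animals or cultures within a group, so every p-value refers to the spread among these libraries only, and that spread may be technical.

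Of the 9 glutathione genes, Gclm rose, Slc7a11 fell slightly, and the other 7 did not pass the test. A gene passed where its adjusted p was under 0.05 in edgeR's quasi-likelihood test with Benjamini-Hochberg adjustment over 11809 genes. By this rule 14.3% of all genes tested passed (7.42% higher and 6.88% lower), so 2 of 9 is close to the background. The FPKM values of the groups did not overlap for 4 members, Gclm and Gsr above and Slc7a11 and Gpx1 below in DKO, against 29.6% of all genes tested. The median log2 fold change of the members was −0.04, beside 0.0 over all genes tested. In bulk RNA, fewer cells of a type and less RNA per cell cannot be told apart, which holds for each level given here.

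**Figure D1:**
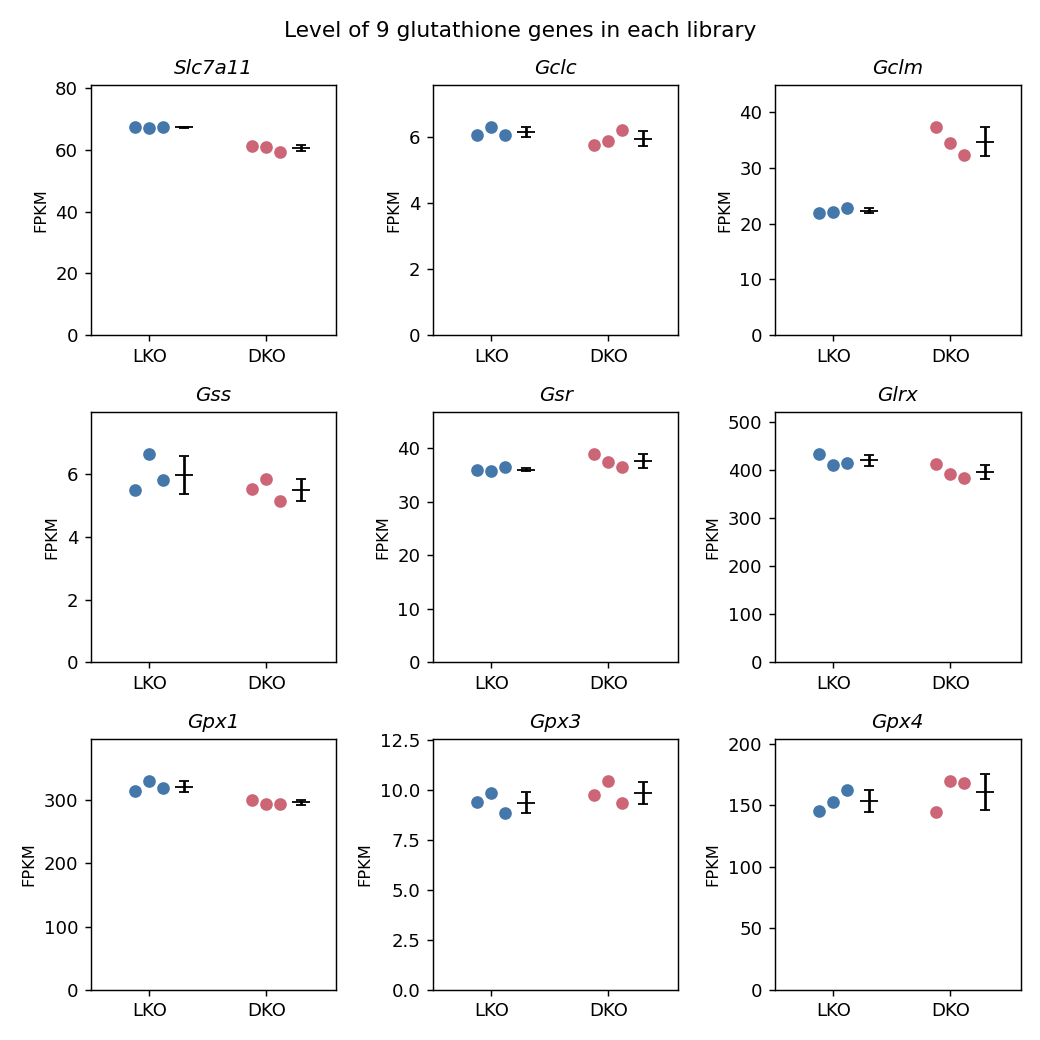
FPKM of each of the 9 genes in the 3 LKO and 3 DKO libraries, with each axis starting at 0. Points are libraries and the black bars beside them the mean ± SD; Gclm in DKO (32.2 to 37.3) lies well above LKO (21.9 to 22.8), while the other panels differ little between the groups.

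Members differed widely in level, and that order was nearly the same in both groups. Per length, Glrx was the most abundant in LKO (420.2 FPKM, rank 167 of 16138 genes with a level above 0), followed by Gpx1 (322), Gpx4 (153), Slc7a11 (67.3), Gsr (36.0), Gclm (22.3), Gpx3 (9.36), Gclc (6.15) and Gss (5.96). In LKO each neighbour in this order was separated from the next by its range over libraries, except Gclc and Gss, whose ranges overlapped. In DKO the order was the same, but the ranges of Gsr (36.4 to 39.0 FPKM) and Gclm (32.2 to 37.3) now overlapped as well. Among the 9 members, the enzymes that spend and recycle glutathione thus had higher mean RNA levels than the enzymes that build it. The exception was Gpx3, which lay below Gclm, and in DKO Gsr was not separated from Gclm.

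The RNA of Slc7a11 was slightly lower in DKO, while that of its partner Slc3a2 was higher; transport itself was not measured. Slc7a11 encodes xCT, the transport subunit of the cystine-glutamate exchanger. It stood at 67.5, 67.0 and 67.4 FPKM in the LKO libraries and at 61.3, 61.0 and 59.4 in the DKO libraries. All 3 DKO values lay below all 3 LKO values, and the spread within LKO was small (67.3 ± 0.240 against 60.5 ± 1.03, SD, n = 3 each). It fell by 9.31% (95% interval of the change −14.2% to −4.11%), a log2 fold change of −0.14 ± 0.04 SE that passed in edgeR (adjusted p = 0.0159). It rested on 6074 to 6895 expected counts per library, which, unlike those of the other 8 members, were not whole numbers, as can arise where reads are divided with another gene, and of the 813 genes that fell 14 changed by less. It no longer passed when LKO replicate 2 (edgeR adjusted p = 0.0576), DKO replicate 2 (0.0536) or DKO replicate 3 (0.0818) was left out, with log2 fold changes of −0.14, −0.14 and −0.13. Slc3a2, which encodes the heavy chain that carries xCT to the membrane and also serves other transporters, moved the other way: it stood at 67.5, 70.5 and 74.2 FPKM in LKO and at 83.8, 83.8 and 79.0 in DKO. Its groups did not overlap, and it rose by a log2 fold change of 0.23 ± 0.05 SE (edgeR adjusted p = 0.0018).

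Of the ligase that commits cysteine to glutathione, 1 subunit rose and the other did not pass. The enzyme has a catalytic subunit, Gclc, and a modifier subunit, Gclm, which lowers the enzyme's need for glutamate and its feedback inhibition by glutathione. Gclm was at 21.9, 22.1 and 22.8 FPKM in LKO and at 37.3, 34.4 and 32.2 in DKO. Every DKO library was above every LKO library, and the DKO values also spread more. Gclm rose 1.57-fold (95% interval 1.43 to 1.72), a log2 fold change of 0.65 ± 0.06 SE (edgeR adjusted p = 1.87e-07), on 496 to 850 expected counts. Of the 876 genes that rose, 175 had a larger log2 fold change. Gclc was at 6.07, 6.31 and 6.06 FPKM in LKO and at 5.75, 5.89 and 6.20 in DKO. These groups overlapped, and the log2 fold change of −0.04 did not pass (edgeR adjusted p = 0.837), with a 95% interval of −13.2% to 9.41%. The intervals of the subunits' log2 fold changes, 0.52 to 0.78 for Gclm and −0.20 to 0.13 for Gclc, did not meet.

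Because FPKM is per length, the ratio of the subunits can be read within each library. Gclm to Gclc was 3.61, 3.51 and 3.75 in LKO and 6.49, 5.84 and 5.20 in DKO. The ratio was thus higher in all 3 DKO libraries, with means of 3.62 ± 0.123 and 5.84 ± 0.649 (SD, n = 3 each), 1.61 times the LKO mean. By an exact permutation test (two-sided) p was 0.1, and no smaller value can be reached with 3 libraries in each group. These are ratios of RNA, and protein was not measured.

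**Figure D2:**
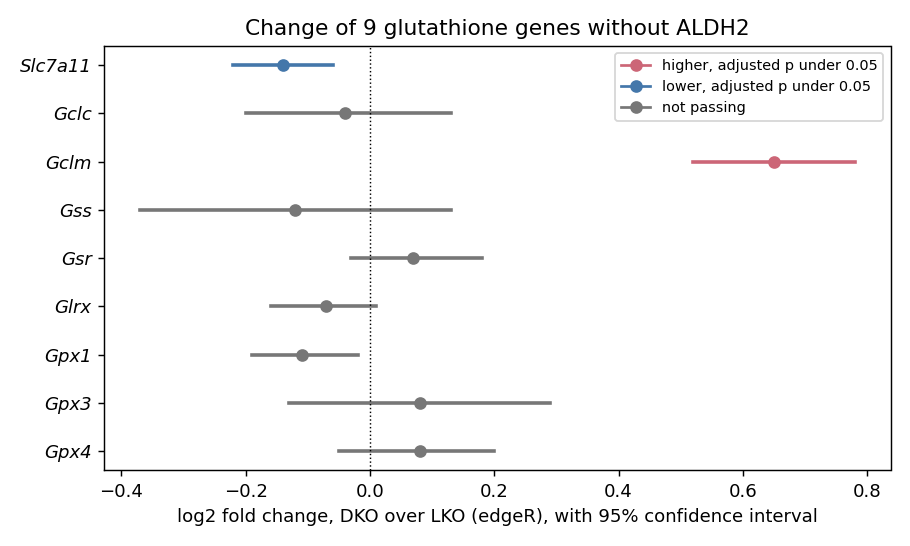
Log2 fold change of DKO over LKO for the 9 genes (points) with its 95% confidence interval (lines), from edgeR. Gclm lies at 0.65 and Slc7a11 at −0.14, and the intervals of the other members, apart from Gpx1, include 0.

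The synthetase and the reductase did not pass. Gss, the synthetase that adds glycine, was at 5.47, 6.63 and 5.79 FPKM in LKO and at 5.51, 5.82 and 5.12 in DKO. The groups overlapped, and its low counts (110 to 142 per library) left a 95% interval of −22.4% to 9.52% (edgeR adjusted p = 0.603). Gsr, the reductase that regenerates glutathione, was at 35.9, 35.8 and 36.4 FPKM in LKO and at 39.0, 37.5 and 36.4 in DKO. The groups did not overlap, but the lowest DKO value (36.44) and the highest LKO value (36.42) nearly coincided. The log2 fold change of Gsr, 0.07, did not pass (edgeR adjusted p = 0.4), and its 95% interval ran from −2.17% to 13.2%. A change of Gsr as large as that of Gclm lies outside this interval.

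The most abundant member did not pass either. Glrx, the cytosolic enzyme that removes glutathione from modified protein thiols, was at 433.9, 411 and 416 FPKM in LKO and at 412, 392 and 384 in DKO. The groups overlapped only between the highest DKO and the lowest LKO library. Its log2 fold change of −0.07 did not pass (edgeR adjusted p = 0.282), with a 95% interval of −10.6% to 0.917%. After quantile normalization in limma, the value for Glrx was −0.01 (limma adjusted p = 0.956).

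None of the peroxidase genes passed in edgeR, although Gpx1 (unadjusted p = 0.0208) lay closest to the threshold. Gpx1, the main cytosolic peroxidase for hydrogen peroxide, was at 314, 331 and 320.1 FPKM in LKO and at 301, 295 and 294 in DKO. All DKO values lay below all LKO values, and the fitted change was −7.08% (95% interval −12.6% to −1.22%). This did not pass the adjusted threshold (log2 fold change −0.11 ± 0.04 SE, edgeR adjusted p = 0.108), although it did without LKO replicate 1 (0.0473). Gpx4, the peroxidase that reduces phospholipid hydroperoxides and restrains ferroptosis, was at 145, 153 and 162 FPKM in LKO and at 144, 169.6 and 168 in DKO. DKO replicate 1 stood with the lowest LKO library and the other two DKO libraries above all LKO libraries. Its log2 fold change of 0.08 did not pass (edgeR adjusted p = 0.458), and without DKO replicate 1 it was 0.15 (0.105). Gpx3, the secreted peroxidase, was at 9.41, 9.86 and 8.82 FPKM in LKO and at 9.72, 10.4 and 9.34 in DKO, overlapping groups with a log2 fold change of 0.08 (edgeR adjusted p = 0.686).

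Together the listed peroxidase genes (Gpx1, Gpx3, Gpx4, Gpx7 and Gpx8) summed to 469.8, 494 and 492 FPKM in LKO and to 456, 476 and 473 in DKO. Gpx1 took 65.1% to 66.9% of that sum in LKO and 61.9% to 66.0% in DKO, and Gpx4 30.8% to 33.0% and 31.6% to 35.6%. Gpx7 and Gpx8 were at most 1.0 FPKM in any library, and Gpx2, Gpx5 and Gpx6 were not listed in any. The ratio of Gpx4 to Gpx1 was 0.461, 0.462 and 0.507 in LKO and 0.479, 0.575 and 0.571 in DKO. These overlapped, with means of 0.477 ± 0.0265 and 0.542 ± 0.0543 (SD, n = 3 each; exact two-sided permutation p = 0.2).

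**Figure D3:**
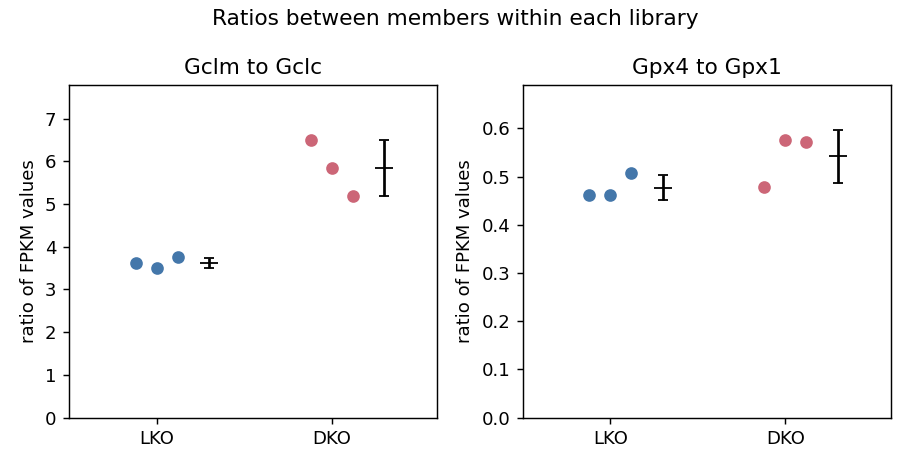
Ratio of FPKM values within each library for the ligase subunits (left) and the intracellular peroxidases (right), in 3 LKO and 3 DKO libraries, with axes from 0 and black bars for the mean ± SD. The Gclm to Gclc ratio lies between 3.51 and 3.75 in LKO and between 5.20 and 6.49 in DKO, while the Gpx4 to Gpx1 ratios of the groups overlap.

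In glutathione breakdown and export, the genes that rose were Oplah, Ggt5 and Abcc1. Of 19 listed genes 12 were tested, 3 rose, 1 fell and 8 did not pass (median log2 fold change 0.01). Over all genes tested 7.42% rose and 6.88% fell. Oplah, the 5-oxoprolinase that returns glutamate from glutathione breakdown, stood at 1.07, 1.04 and 1.07 FPKM in LKO and at 1.84, 2.17 and 2.01 in DKO. Its level was low, but the groups lay far apart (log2 fold change 0.93 ± 0.15 SE, edgeR adjusted p = 0.000126). Ggt5, a gamma-glutamyl transferase that acts on extracellular glutathione conjugates, rose from 2.35 ± 0.410 to 3.42 ± 0.291 FPKM (log2 fold change 0.55, edgeR adjusted p = 0.00458). Abcc1, which exports glutathione and its conjugates, rose from 36.4 ± 0.592 to 41.3 ± 1.46 FPKM (log2 fold change 0.19, edgeR adjusted p = 0.00408). The member that fell was Lap3, a leucine aminopeptidase, from 19.7 ± 1.36 to 16.5 ± 1.12 FPKM (log2 fold change −0.25, edgeR adjusted p = 0.0181), and this call was lost in DESeq2 (adjusted p = 0.0656), in several limma fits, without LKO replicate 1 (0.0854) and without DKO replicate 3 (0.111). Chac1, which degrades intracellular glutathione, was at 0.177 and 0.290 FPKM and too low to be tested.

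Genes that supply or use cysteine and glutamate changed in both directions. Of 21 listed 13 were tested, 2 rose, 3 fell and 8 did not pass (median log2 fold change −0.05). The shares over all genes tested were 7.42% higher and 6.88% lower. Besides Slc3a2, Glul, the synthetase that turns glutamate into glutamine, rose from 89.5 ± 1.90 to 111 ± 3.50 FPKM (log2 fold change 0.32, edgeR adjusted p = 2.14e-05). Ahcy, which splits S-adenosylhomocysteine on the methionine route to cysteine, fell from 13.8 ± 2.29 to 9.67 ± 0.869 FPKM (log2 fold change −0.50, edgeR adjusted p = 0.00126). The glutamine carrier Slc1a5 fell from 3.15 ± 0.434 to 2.18 ± 0.588 FPKM (edgeR adjusted p = 0.0424), a call lost in DESeq2 (0.111), in every limma fit and when any of 4 single libraries was left out (LKO replicates 2 and 3, DKO replicates 1 and 3; up to 0.209). The transsulfuration genes Cth and Cbs, which make cysteine from methionine, were at most 0.0833 FPKM on average in either group and were not tested.

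Among other glutathione-dependent enzymes 1 of 11 tested passed and among selenoprotein synthesis genes 3 of 12, beside 14.3% of all genes tested. Of 17 listed enzymes 11 were tested, none rose (none at an unadjusted p under 0.05, and none in DESeq2 or limma) and 1 fell in edgeR: Hpgds, a glutathione-dependent prostaglandin D synthase, from 56.8 ± 3.38 to 45.1 ± 2.33 FPKM (log2 fold change −0.32, edgeR adjusted p = 0.000156). The remaining 10, among them the glutaredoxins Glrx2, Glrx3 and Glrx5 and the glyoxalases Glo1 and Hagh, had log2 fold changes between −0.23 and 0.08 and did not pass. Selenoprotein synthesis serves Gpx1, Gpx3 and Gpx4, which carry selenocysteine. Its 12 genes were all tested, 1 rose, 2 fell and 9 did not pass. Selenop, the secreted selenium carrier, rose from 2274 ± 26.2 to 2604 ± 61.0 FPKM (log2 fold change 0.21, edgeR adjusted p = 0.000193). Scly and Lrp8, a selenocysteine lyase and a receptor for Selenop, fell (log2 fold change −0.26 and −0.69, edgeR adjusted p = 0.0466 and 0.0204). Both calls were lost in DESeq2 (adjusted p = 0.159 and 0.109) and without LKO replicate 2 (0.0898 and 0.0750) or LKO replicate 3 (0.201 and 0.0748). That of Scly was also lost in every limma fit, in edgeR without a count filter and without DKO replicate 1 (0.231) or 3 (0.0953). That of Lrp8 was also lost in limma without a filter and without DKO replicate 2 (0.124).

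Genes tied to lipid peroxidation, the damage that Gpx4 repairs, gave 4 rises and 1 fall among 17 tested of 20 listed. Among all genes tested 7.42% rose and 6.88% fell. Por, the oxidoreductase that feeds electrons to cytochrome P450, rose from 137 ± 4.81 to 156 ± 4.37 FPKM (log2 fold change 0.21, edgeR adjusted p = 0.00201). The ferritin genes Fth1 and Ftl1 rose by log2 fold changes of 0.14 and 0.18 (edgeR adjusted p = 0.0034 and 0.00224), which did not pass in limma on log2(FPKM + 1). After quantile normalization in limma the value for Fth1 was 0.12 (limma adjusted p = 0.00455) and that for Ftl1 0.0. This normalization gives a gene of the same rank in every library the same value. For a gene as high as Ftl1 (rank 3 by LKO level) the 0.0 therefore cannot decide whether its level changed. Both have pseudogenes that can share their reads. The transferrin receptor gene Tfrc rose by 0.18 (edgeR adjusted p = 0.0295), a call lost in DESeq2 (0.0678) and in every limma fit. The Tfrc call was also lost without LKO replicate 2 (0.0997), LKO replicate 3 (0.123), DKO replicate 1 (0.113) or DKO replicate 3 (0.135). Acsl3, an acyl-CoA synthetase, had a log2 fold change of −0.34 (edgeR adjusted p = 0.0155), lost in DESeq2 (0.0708), in some limma fits and without LKO replicate 1 (0.0982) or DKO replicate 2 (0.0701). Acsl4 and Lpcat3, which load polyunsaturated fatty acids into phospholipids, and Aifm2, which acts beside Gpx4 through ubiquinol, did not pass (edgeR adjusted p = 0.102, 0.461 and 0.56).

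**Figure D4:**
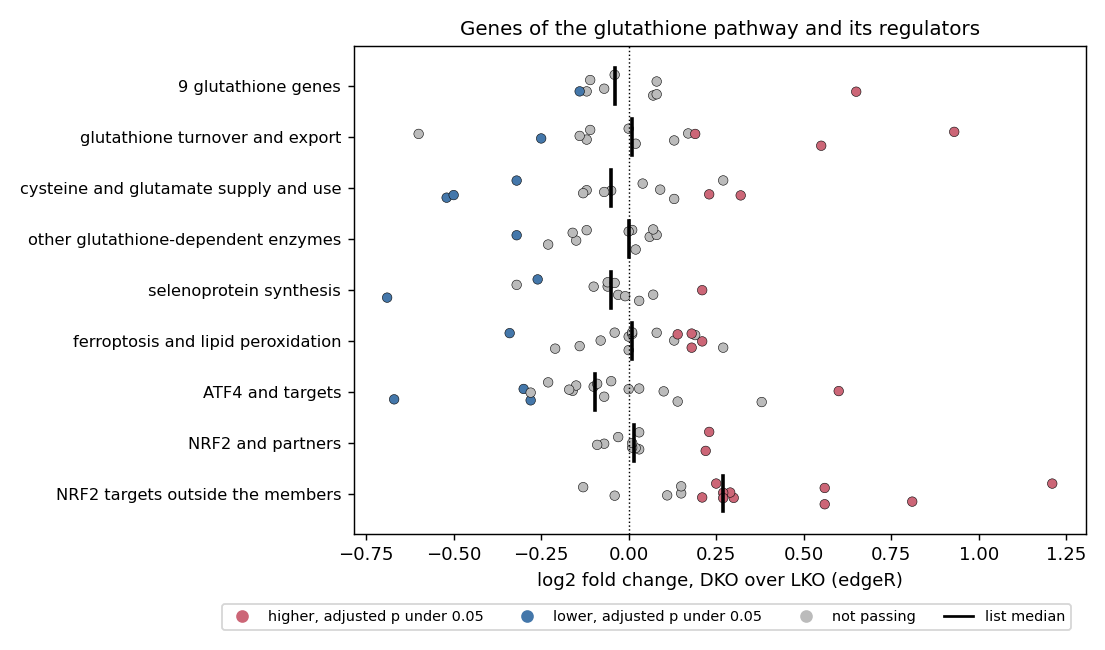
Log2 fold change of DKO over LKO (edgeR) for every tested gene of the 9 members and of the 8 other lists, 1 point per gene, coloured by whether it passed an adjusted p of 0.05, with a black bar at each list's median. The NRF2 targets have a median of 0.27, and the medians of the other lists lie near 0.

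The regulators of Gclm and Slc7a11 were read from 3 lists. NRF2 itself (Nfe2l2) averaged 83.7 ± 2.37 FPKM across LKO and 79.0 ± 1.85 across DKO and did not pass (log2 fold change −0.07, edgeR adjusted p = 0.334). Of 10 tested genes in the list of NRF2 with its partners and regulators, 2 rose and none fell in edgeR. None fell at an unadjusted p under 0.05, and none in DESeq2 or limma. By edgeR 7.42% of all genes tested rose and 6.88% fell. The 2 that rose were Sqstm1, the p62 adaptor that binds KEAP1, from 166 ± 7.33 to 193 ± 5.05 FPKM (log2 fold change 0.23, edgeR adjusted p = 0.000849), and Keap1, the repressor of NRF2, from 19.9 ± 0.706 to 23.1 ± 1.06 (0.22, edgeR adjusted p = 0.0125). The Keap1 call was lost without LKO replicate 2 (0.0851), DKO replicate 2 (0.0626) or DKO replicate 3 (0.0702). Of 15 tested NRF2 targets outside the members 10 rose (8 in DESeq2 and 7 in limma) and none fell in edgeR, DESeq2 or limma, nor at an unadjusted edgeR p under 0.05. The median log2 fold change of these targets was 0.27. Over all genes, 7.42% of those tested rose in edgeR, 644 rose in DESeq2 and 561 in limma on log2(FPKM + 1). DESeq2 started from the same 11809 genes as edgeR. Limma instead kept genes of at least 1 FPKM in at least 3 libraries, so its count is not a share of those genes. The targets of smallest p were Hmox1 (0.81), the haem transporter Slc48a1 (116 ± 3.34 to 170.4 ± 1.61 FPKM, 0.56), the transferase Gstm1 (0.56) and catalase, Cat (0.27), with edgeR adjusted p of at most 4.26e-05. Of the members that NRF2 is known to drive, Gclm rose, Slc7a11 fell (−0.14, edgeR adjusted p = 0.0159), and Gclc and Gsr did not pass. Whether NRF2 had a part in any of these changes was not tested. Among the targets outside the members Txnrd1, Taldo1, Pgd, Cbr1 and Tkt did not pass (edgeR adjusted p = 0.0534, 0.0578, 0.101, 0.34 and 0.586). Their log2 fold changes were 0.15, 0.15, 0.11, −0.13 and −0.04. Nqo1 was too low to be tested (mean 0.2 FPKM in LKO and 0.413 in DKO).

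The list of ATF4 and its amino acid response targets gave 1 rise and 3 falls among 18 tested of 20 listed (median log2 fold change −0.09). Beside this, 7.42% of all genes tested rose and 6.88% fell. Atf4 itself was at 58.6 ± 3.30 and 53.7 ± 3.43 FPKM and did not pass (log2 fold change −0.10, edgeR adjusted p = 0.288). Psat1, an aminotransferase of serine synthesis, stood at 4.61, 4.12 and 4.53 FPKM in LKO and at 2.85, 2.53 and 2.90 in DKO. Its groups did not overlap (log2 fold change −0.67 ± 0.14 SE, edgeR adjusted p = 0.00139). The mitochondrial folate enzymes Mthfd2 and Shmt2 had log2 fold changes of −0.30 and −0.28 (edgeR adjusted p = 0.0213 and 0.0347), both lost in DESeq2 (0.125 and 0.117). The Mthfd2 call was also lost without LKO replicate 2 (0.0712), LKO replicate 3 (0.0594) or DKO replicate 3 (0.112). That of Shmt2 was also lost in every limma fit and without LKO replicate 3 (0.182), DKO replicate 2 (0.109) or DKO replicate 3 (0.181). The gene that rose was the transcription factor Cebpb, from 32.2 ± 7.25 to 48.6 ± 3.89 FPKM (0.60, edgeR adjusted p = 0.000244).

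Genes lying near the members were counted after the values had been seen. Of the 30 tested genes nearest to Gclm by distance between gene midpoints, 2 passed and none by 1.5-fold or more. Around Slc7a11 it was 1 and none. Around Gpx3 it was 10 and 2, around Gclc 6 and 1, and around the other 5 members 3 or 4, with 1 of that size near Gpx4 and none near the rest. The median window of all tested genes held 4 that passed and 1 of that size. Several annotated genes without a listed value overlap members: Gm46822 and Gm6061 overlap Gclm, Gssos2 overlaps Gss, Gm24727 and Gm17803 overlap Gsr, and Gm41005 overlaps Glrx. As no source used here states the strand setting of the counting, a read of such a partner cannot be told apart from the member's own.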

How the data were processed

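RNA sequencing libraries of 3 LKO and 3 DKO macrophage samples were grouped by their titles. Per the file headers, the authors deposited for each gene an expected count (estimated reads, not scaled to depth), an FPKM value and a transcript length in bases. Per the submitters' processing notes, Bowtie 0.12.2 and mm8 were used; the counting tool is not given in the sources used here. A gene absent from a file was taken as 0. Symbols came from a RefSeq table of GRCm38.p6, which matched 16832 of 16871 gene numbers.

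Expected counts were rounded and tested in R 4.3.3 with edgeR 4.0.16 (filterByExpr, TMM, quasi-likelihood, no block) over all genes; standard errors were taken as the fold change over the root of F. The fits were checked on simulated counts. Means ± SD are of deposited FPKM. The alternatives were DESeq2 1.42.0, other edgeR settings, limma 3.58.1 on log2(FPKM + pseudocount), whose fold changes understate those of low genes, and leaving out each library. Genes named are the 9 members, the check gene Aldh2 and up to 4 list genes of smallest p. List genes of directions taken by 5 or fewer were also named. Other genes named beside them (Chac1, Cth, Cbs, Acsl4, Lpcat3, Aifm2, Nfe2l2, Atf4, Txnrd1, Taldo1, Pgd, Cbr1, Tkt, Nqo1, the glutaredoxins and glyoxalases) were chosen with values seen. A few list genes enter the counts but are not reported here. The members and lists were chosen with earlier results of these data known. Counts of reads are not counts of molecules, so intervals do not cover amplification.

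Replicate pairs within a group differed by more than counting noise (chi-square per degree of freedom 1.68 to 3.71), so no pair was treated as the same library deposited more than once; this does not show that the libraries are independent samples.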

Additional observations from a re-analysis of the deposited data

How the results depend on the processing

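Over 17 alternatives per member, 149 of 153 values kept their direction and side of the threshold and none changed sign. Gclm ranged from 0.54 to 0.69 (log2) and passed in each (adjusted p up to 0.00454). The Slc7a11 fold ranged from −0.15 to −0.13, and its call was lost without LKO replicate 2, DKO replicate 2 (both −0.14) or DKO replicate 3 (−0.13); Gpx1 passed without LKO replicate 1 (−0.12), with a range of −0.12 to −0.09 over such omissions. Members called lower thus ranged from 0 to 2 when single libraries were left out. Over all genes, 876 rose and 813 fell in edgeR. Limma called 561 higher with a pseudocount of 1, 557 with 0.1, 563 with 5, 425 without a filter, 567 after rescaling to TPM, 575 after quantile normalization and 571 after median centring; it called 382 lower without a filter and 533 after quantile normalization. In the lists, DESeq2 called 0 lower for turnover and export, selenoprotein synthesis and lipid peroxidation and 1 for ATF4 targets; limma called 0 lower for the first 2 and 1 higher for lipid peroxidation. Of 34 called genes in the other lists, 14 passed in every alternative run, a check chosen in part after seeing the data, and 6 lost their call in limma without a filter alone.

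Same-numbered libraries did not deviate together (correlations 0.018, −0.056 and −0.027). This gave no sign of pairing by number but cannot exclude it, as a weak shared deviation could be missed. With the replicate block, Gclm was at 0.65, Slc7a11 at −0.14 (edgeR adjusted p = 0.0326) and 810 and 743 genes rose and fell; Shmt2 did not pass (0.0534). Depth limits Gss, Gpx3 and Gclc most, with 110 to 237 counts per library.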
